A study of Mus musculus with 20 samples.

Results

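Abcc9, Kcnj8, Tagln and Acta2 are 4 genes used to mark the cells that wrap blood vessels, and their levels were followed here in limb muscle of mice with motor neuron disease or a crushed nerve. The 4 genes were chosen with earlier results of these data known. Their probe sets were then taken by gene symbol, with no choice among probe sets by value. They are 4 of 6603 genes that had a probe set of their own on the array. Each had 1 probe set: 1420408_a_at for Abcc9, 1418142_at for Kcnj8, 1423505_at for Tagln and 1416454_s_at for Acta2. All 4 were among the 7523 of 10748 probe sets kept for testing, which were those with a mean log2 signal of at least 5.88 over the 20 arrays.

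The arrays held RNA from female C57BL/6 mice aged 14 weeks, in 5 groups of 4 arrays with 1 sample an array. Gastrocnemius, a calf muscle, and triceps, a muscle of the upper fore limb, were taken from symptomatic mice with transgenic human SOD1G93A, a model of amyotrophic lateral sclerosis (called SOD1 below). The same muscles were taken from non-transgenic mice (NTg). The fifth group, called crush, was gastrocnemius collected 2 weeks after the sciatic nerve was crushed for 30 s in mice of 12 weeks. The labels state neither the genotype of these mice nor the promoter of the transgene, and no sham-operated group was analysed here. The titles call the samples biological replicates, but no label ties a number in 1 muscle to the mouse of that number in the other.

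Abcc9 and Kcnj8 encode the parts of one channel. Kcnj8 forms the pore of a potassium channel that closes when ATP is plentiful, and Abcc9 encodes the sulfonylurea receptor that surrounds the pore and senses nucleotides. In vessel walls this pair sets the membrane potential of pericytes and smooth muscle cells, so that opening the channel relaxes the vessel. Skeletal muscle fibres also use Abcc9, there paired with another pore gene, Kcnj11, so Abcc9 in whole muscle is not a signal of pericytes alone. Acta2 encodes the smooth muscle actin that builds the contractile filaments of arterioles, and Tagln encodes transgelin, a protein that binds those filaments. Acta2 and Tagln are also made by myofibroblasts, the contractile fibroblasts of scarred tissue, and both are textbook targets of serum response factor, which binds CArG boxes.

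Promoter windows of 300 bases, from 250 before to 50 after the gene's start, were matched by symbol for 3 of the 4 genes (Abcc9, Kcnj8 and Acta2, not Tagln) in RefSeq sequence of build GRCm38.p6. Those of Abcc9 and Acta2 are shown because, at the settings searched, they held different muscle control motifs next to the genes' starts. The Abcc9 window, at chr6:142702225-142702524 on the minus strand, held an exact MEF2 box (the element bound by the muscle factor MEF2) that began 8 bases before the start. The Acta2 window, at chr19:34255324-34255623 on the minus strand, held 2 CArG boxes with 1 mismatch each, beginning 84 and 34 bases before the start. Capitals mark these boxes, and each sequence runs 5′ to 3′ along the gene's own strand.
Abcc9: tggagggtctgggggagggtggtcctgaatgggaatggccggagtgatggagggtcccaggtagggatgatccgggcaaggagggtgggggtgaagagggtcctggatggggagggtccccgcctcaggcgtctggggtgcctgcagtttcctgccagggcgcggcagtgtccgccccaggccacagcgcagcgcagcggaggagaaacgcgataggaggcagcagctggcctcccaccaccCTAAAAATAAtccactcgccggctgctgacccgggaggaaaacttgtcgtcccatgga
Acta2: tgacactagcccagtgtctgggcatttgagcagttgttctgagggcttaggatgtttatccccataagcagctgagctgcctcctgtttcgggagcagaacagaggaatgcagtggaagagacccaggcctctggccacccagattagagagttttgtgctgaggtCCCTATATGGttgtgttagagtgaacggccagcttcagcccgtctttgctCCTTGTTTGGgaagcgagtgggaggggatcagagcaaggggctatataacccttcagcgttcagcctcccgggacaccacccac

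The Kcnj8 window held 1 CArG box with 1 mismatch, 46 bases before the start, and no exact MEF2 box. On both strands, 3.19% of 32851 mouse promoter windows held an exact MEF2 box, 1.63% an exact CArG box, and 21.1% a CArG box with at most 1 mismatch. A window with a loose CArG box is therefore common, and a match describes the letters only, not a bound site. MEF2 boxes were searched only as exact matches, so the 2 motifs were not held to the same standard. The boxes in these windows did not overlap each other. Abcc9 and Kcnj8 lie next to each other on chromosome 6 with 130.7 kb between their starts.

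All arrays were on one scale, with medians of 6.61 to 6.76, and replicates correlated at r of 0.916 to 0.973 over all probe sets. Of the skeletal muscle genes, myoglobin (Mb) was at 11.1 or more on every array. Ckm, the muscle creatine kinase gene, was at 7.27 on SOD1 triceps replicate 2 and at 10.95 or more on every other array. The labels of NTg triceps replicate 4 disagree on its muscle. Hoxd10, a limb position gene, was at 0.89 on that array, inside the triceps range of 0.0066 to 1.80 and below the gastrocnemius range of 2.42 to 5.35. The crushed group was uneven: Chrna1, the acetylcholine receptor subunit that denervated fibres make, was at 11.3 in replicate 4 and at 6.97 to 7.40 in the others. In gastrocnemius Chrna1 was at 6.20 to 6.81 in NTg and at 8.57 to 10.8 in SOD1. The crush arrays other than replicate 4 thus lay above NTg but below every SOD1 gastrocnemius array. Results that rest on crush replicate 4 are also given without it. The probe set of mouse Sod1 was higher on each SOD1 than on any NTg gastrocnemius array, and whether it reads the human transgene was not tested.

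**Figure D1:**
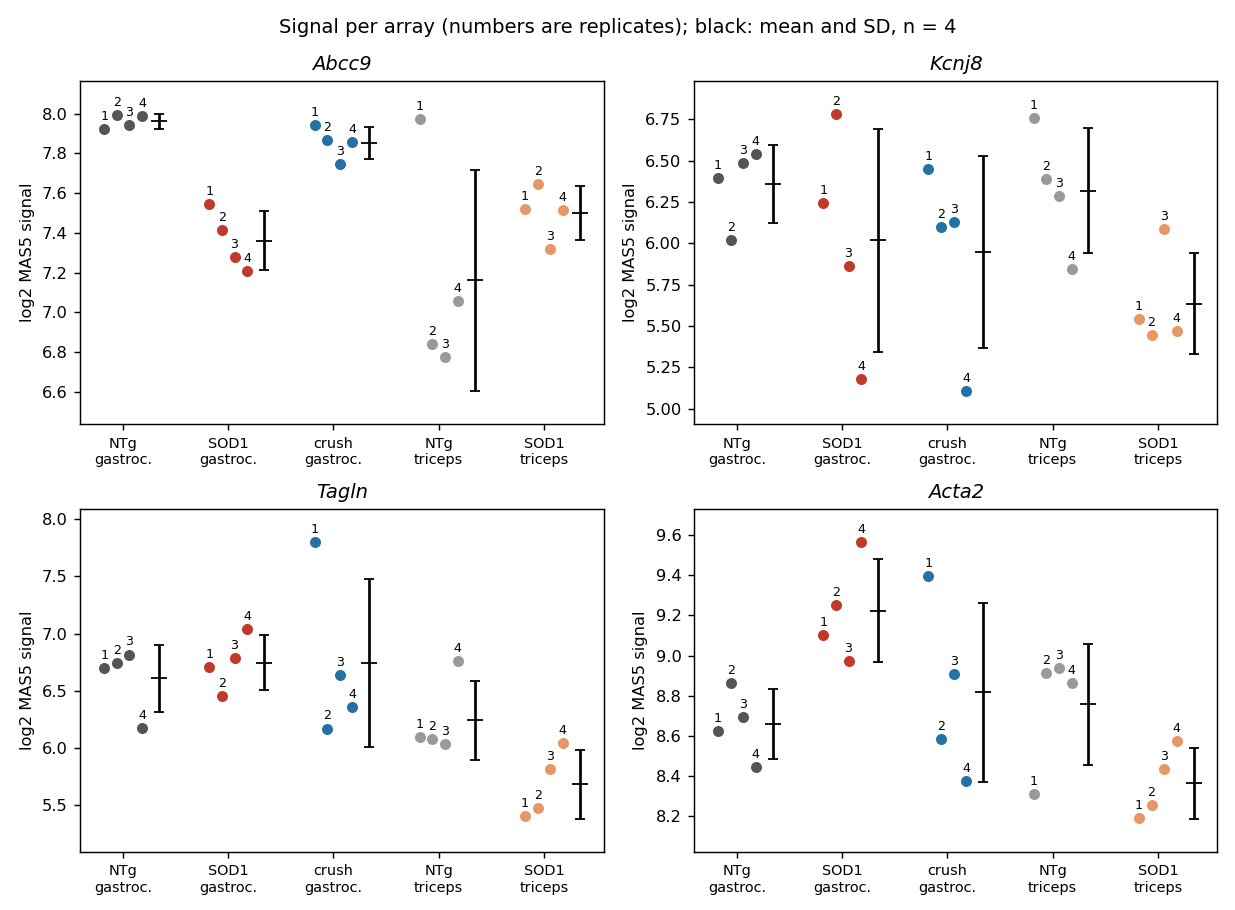
Log2 MAS5 signal of Abcc9, Kcnj8, Tagln and Acta2 on each of 20 arrays, by group; each numbered point is 1 array, and the black bars give the mean and SD (n = 4). Abcc9 sat between 7.92 and 7.99 on the 4 NTg gastrocnemius arrays and between 7.21 and 7.54 on the 4 SOD1 gastrocnemius arrays, and 1 NTg triceps array at 7.98 stands far above the other 3.

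Abcc9, the channel's receptor subunit, was lower in SOD1 than in NTg gastrocnemius. Its log2 signal was 7.92, 7.99, 7.94 and 7.99 on the NTg arrays. On the SOD1 arrays it was 7.54, 7.41, 7.28 and 7.21. Every SOD1 array lay below every NTg array, and the NTg arrays were nearly identical to each other. The means were 7.96 ± 0.036 (SD, n = 4) and 7.36 ± 0.15 (SD, n = 4), a change of -0.60 (SE 0.18, 95% interval -0.98 to -0.22), or 0.660 of the NTg level. In limma's moderated test with Benjamini-Hochberg adjustment over all tested probe sets the adjusted p was 0.0375, and the exact two-sided permutation test gave p = 0.0286, the smallest possible with 4 against 4. Leaving out 1 SOD1 or NTg array at a time gave changes of -0.66 to -0.55. The limma adjusted p stayed under 0.05 without SOD1 replicate 1, at 0.0286, and the call was lost without SOD1 replicate 2, 3 or 4 or any NTg array, at up to 0.122.

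Of the 4 genes, 1 was called in SOD1 against NTg gastrocnemius, where 12% of all tested probe sets were called, and 2 had groups that did not overlap, against 26% of all. A call in this comparison was therefore common across the array. Whole muscle was measured, so fewer cells of a type and less RNA per cell cannot be told apart.

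In crushed gastrocnemius Abcc9 was near its NTg level. The 4 crush arrays read 7.94, 7.87, 7.75 and 7.86, and only the highest of them reached the NTg range. The change against NTg was -0.11 (SE 0.18, 95% interval -0.49 to 0.27, limma adjusted p = 0.785). None of the 4 genes was called here by limma and none had an unadjusted p under 0.05, where 4.13% of all probe sets were called, and 0 of 4 had separate groups against 16.4% of all. Set against the crush arrays, SOD1 gastrocnemius was lower by a log2 change of -0.49 (SE 0.18, 95% interval -0.87 to -0.11), and every SOD1 array lay below every crush array. Its limma adjusted p was 0.273 and its exact permutation p 0.0286. In that comparison limma called 0 of 4 genes (2 at an unadjusted p under 0.05) and 0% of the probe sets (940 at an unadjusted p under 0.05), and 1 of 4 had separate groups, against 5.48% of all. SOD1 and crush are both compared with the same 4 NTg arrays, so their 2 changes are not independent.

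In triceps the change of Abcc9 was upward in direction and not called. The NTg triceps arrays read 7.98, 6.84, 6.77 and 7.06, and the SOD1 triceps arrays 7.52, 7.64, 7.32 and 7.52. Replicate 1 of NTg triceps reads like gastrocnemius for this gene, while the other 3 lie below every other array of the series. The change with SOD1 was 0.34 (SE 0.18, 95% interval -0.041 to 0.72, limma adjusted p = 0.371). Without NTg triceps replicate 1 it was 0.61 with a limma adjusted p of 0.0330. None of the 4 genes was called in triceps with all arrays (1, Kcnj8, had an unadjusted p under 0.05), where limma called 0.239% of probe sets, and 0 of 4 had separate groups, against 6.99% of all.

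The SOD1 change of Abcc9 was opposite in sign in the 2 muscles, and the difference was tested directly. Gastrocnemius minus triceps gave -0.94 (SE 0.26, 95% interval -1.47 to -0.40), with an unadjusted p of 0.00161 and a limma adjusted p of 0.386. Without NTg triceps replicate 1 the difference was -1.21 with a limma adjusted p of 0.00232, so the call turned on that array. With all arrays limma called 0 of 4 genes for this difference (2, Abcc9 and Acta2, had an unadjusted p under 0.05) and 0% of probe sets (710 had an unadjusted p under 0.05).

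Healthy muscles also differed in Abcc9. NTg gastrocnemius was higher than NTg triceps by 0.80 (SE 0.18, 95% interval 0.42 to 1.18), or 1.74-fold, with a limma adjusted p of 0.0292. Of the 4 genes, 1 was called, against 1.71% of all probe sets, and 0 of 4 had separate groups, against 10.3%. Because replicate 1 of NTg triceps reached the gastrocnemius level, the exact permutation p was 0.0857. Without that array the difference was 1.07 and the limma adjusted p 3.39e-05. Leaving out any other of the compared arrays raised the adjusted p above 0.05, to at most 0.140. From highest to lowest mean the order was NTg gastrocnemius, crush gastrocnemius, SOD1 triceps, SOD1 gastrocnemius and NTg triceps; of the neighbours in this order, only crush gastrocnemius and SOD1 triceps did not overlap. The mean levels of both SOD1 muscles lay between those of the healthy muscles.

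Kcnj8, the pore subunit that pairs with Abcc9 in vessel walls, was not called in any comparison. Its log2 signal was 6.39, 6.02, 6.49 and 6.54 in NTg gastrocnemius. In SOD1 gastrocnemius it was 6.25, 6.78, 5.86 and 5.18. The SOD1 arrays spread on both sides of the NTg arrays, from the highest value of the gene in the series to nearly its lowest. The change was -0.34 (SE 0.30, 95% interval -0.97 to 0.29, limma adjusted p = 0.477), an interval that includes falls larger than that of Abcc9. The crush arrays read 6.45, 6.10, 6.13 and 5.11, a change of -0.41 (SE 0.30, 95% interval -1.04 to 0.22, limma adjusted p = 0.477). Without crush replicate 4, which has the lowest value, it was -0.13. SOD1 against crush gave 0.071 (SE 0.30), and left-out arrays moved this between -0.21 and 0.35.

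In triceps Kcnj8 was 6.76, 6.39, 6.29 and 5.84 in NTg mice. It was 5.54, 5.45, 6.09 and 5.47 in SOD1 mice. The SOD1 values were lower, with 1 array, replicate 3, inside the NTg range. The change was -0.68 (SE 0.30, 95% interval -1.31 to -0.052), with a limma adjusted p of 0.298 and an exact permutation p of 0.0571. The gastrocnemius and triceps changes differed by 0.34 (SE 0.43, limma adjusted p = 0.820), and the healthy muscles by 0.042 (SE 0.30, limma adjusted p = 0.974). The order of means was NTg gastrocnemius, NTg triceps, SOD1 gastrocnemius, crush gastrocnemius and SOD1 triceps, and all neighbours overlapped. The Kcnj8 signal was low, with a mean of 6.06 that exceeded 34.3% of probe sets, and the standard error of its changes was 0.30, against 0.18 for Abcc9 at a mean of 7.57.

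Kcnj11, the pore gene that partners Abcc9 in muscle fibres, was named after its values were seen, and it fell below the level needed for testing. Its log2 signal was 6.20, 6.27, 6.47 and 6.61 in NTg gastrocnemius and 6.11, 5.09, 5.12 and 4.51 in SOD1 gastrocnemius. Every SOD1 array was below every NTg array, as for Abcc9. A limma fit of all 10748 probe sets gave a change of -1.18 (SE 0.34, adjusted p = 0.0336), where 9.13% of probe sets were called, and leaving out arrays gave -1.48 to -0.95 with the call kept in 1 of 8 cases. In crush the values were 5.73, 5.78, 6.04 and 5.59, all below NTg, with a change of -0.60 (SE 0.34, limma adjusted p = 0.360, with 2.87% of probe sets called). NTg triceps read 6.09, 4.78, 5.23 and 4.51, so that replicate 1 was again the highest, and SOD1 triceps 5.81, 5.91, 5.35 and 4.58. NTg gastrocnemius exceeded NTg triceps by 1.23 (SE 0.34, limma adjusted p = 0.0664, exact permutation p = 0.0286, with 1.73% of probe sets called). Over the 20 arrays Abcc9 had r = 0.780 with Kcnj11 and r = 0.164 with Kcnj8. Within groups, as deviations from group means, these were 0.594 and 0.281.

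Of 12 listed potassium channel genes of muscle fibres and vessel walls 5 were on the array and 2 were tested. Kcna7, a voltage-gated channel gene, changed by -0.90 (SE 0.49, limma adjusted p = 0.224) in SOD1 gastrocnemius and -0.64 in triceps. Kcnc1, another voltage-gated channel gene, changed by 0.029 and -0.39. Neither passed the test in any comparison, and at most 12% of all tested probe sets did.

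**Figure D2:**
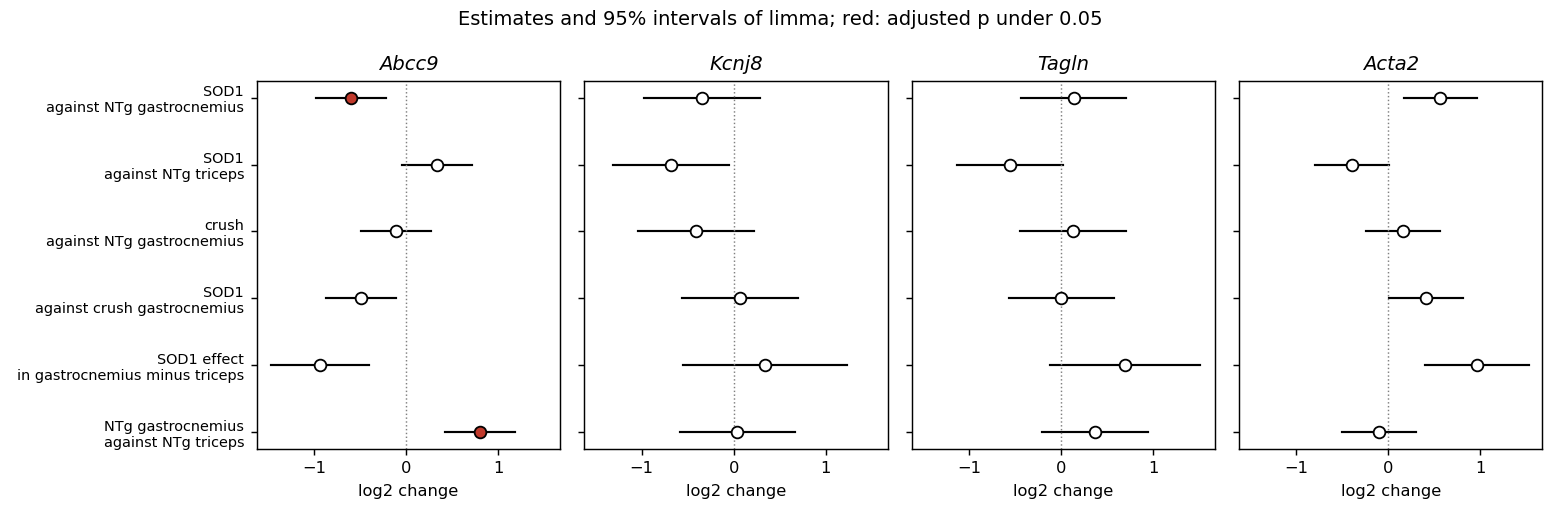
Log2 change of each of the 4 genes in each comparison, with 95% intervals from the fit. Abcc9 is called lower in SOD1 gastrocnemius (-0.60) and higher in NTg gastrocnemius than in NTg triceps (0.80), and Acta2 lies at 0.57 in SOD1 gastrocnemius and at -0.39 in SOD1 triceps.

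Acta2, the smooth muscle actin gene, was higher in SOD1 than in NTg gastrocnemius on every array but did not pass the threshold over all probe sets. It read 8.63, 8.87, 8.69 and 8.44 in NTg gastrocnemius. In SOD1 gastrocnemius it read 9.10, 9.25, 8.97 and 9.57. The lowest SOD1 array, at 8.97, lay above the highest NTg array, at 8.87. The difference was 0.57 (SE 0.19, 95% interval 0.17 to 0.97), or 1.48-fold, with a limma adjusted p of 0.0582 and an exact permutation p of 0.0286. Leaving out arrays gave 0.45 to 0.65, and the limma adjusted p was 0.0321 without crush replicate 4, which enters only through the shared spread. The probe set's ending, _s_at, means that its probes may match other transcripts, here of the actin family.

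Crushed gastrocnemius showed no such separation for Acta2. The arrays read 9.40, 8.58, 8.91 and 8.38, of which replicates 1 and 3 lay above all NTg arrays and replicate 4 below them. The change was 0.16 (SE 0.19, 95% interval -0.24 to 0.56, limma adjusted p = 0.688). It was -0.034 without crush replicate 1 and 0.31 without crush replicate 4. SOD1 exceeded crush by 0.41 (SE 0.19, 95% interval 0.0065 to 0.81, limma adjusted p = 0.388). That difference was 0.60 without crush replicate 1 and 0.26 without crush replicate 4.

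In triceps the change of Acta2 was in the other direction. NTg triceps read 8.31, 8.92, 8.94 and 8.86, with replicate 1 well below the others, and SOD1 triceps 8.19, 8.25, 8.43 and 8.57. The change was -0.39 (SE 0.19, 95% interval -0.79 to 0.0071, limma adjusted p = 0.332), and -0.54 without NTg triceps replicate 1. The SOD1 change in gastrocnemius minus that in triceps was 0.96 (SE 0.27, 95% interval 0.39 to 1.53), with an unadjusted p of 0.00208, a limma adjusted p of 0.392 and values of 0.845 to 1.11 with 1 array left out. The healthy muscles differed by -0.099 (SE 0.19, limma adjusted p = 0.895). The order of means was SOD1 gastrocnemius, crush gastrocnemius, NTg triceps, NTg gastrocnemius and SOD1 triceps, and all neighbours overlapped.

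Tagln, the transgelin gene, was close to level in gastrocnemius. Its values were 6.70, 6.74, 6.82 and 6.17 in NTg, and 6.71, 6.45, 6.78 and 7.04 in SOD1. The groups overlapped, and the change was 0.14 (SE 0.28, 95% interval -0.44 to 0.71, limma adjusted p = 0.782), which turned to -0.0081 without NTg replicate 4. Crush arrays read 7.80, 6.17, 6.63 and 6.35, with replicate 1 the highest of the series, giving 0.13 (SE 0.28, limma adjusted p = 0.835) and -0.22 without that array. SOD1 against crush was 0.0051 (SE 0.28).

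In triceps Tagln was 6.10, 6.07, 6.03 and 6.76 in NTg mice and 5.40, 5.47, 5.82 and 6.04 in SOD1 mice. Only the highest SOD1 array reached the lowest NTg array. The change was -0.56 (SE 0.28, 95% interval -1.13 to 0.017, limma adjusted p = 0.335, exact permutation p = 0.0571), and -0.39 without NTg triceps replicate 4, the high array. The gastrocnemius and triceps changes differed by 0.69 (SE 0.39, limma adjusted p = 0.596), and the healthy muscles by 0.37 (SE 0.28, limma adjusted p = 0.606). The order of means was SOD1 gastrocnemius, crush gastrocnemius, NTg gastrocnemius, NTg triceps and SOD1 triceps, and all neighbours overlapped.

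The genes related to these filament genes were measured too. None of the 5 other actins was called in any comparison, and at most 12% of all tested probe sets were. Skeletal Acta1 changed by 0.17 in SOD1 gastrocnemius and by -0.69 in SOD1 triceps, and cardiac Actc1 by -0.70 and -0.77, each with a wide error. Enteric smooth muscle Actg2 changed by -0.21 and -0.30, and the cytoplasmic actins Actb and Actg1 by 0.12 and 0.0069 in gastrocnemius and by -0.15 and -0.25 in triceps. Acta2, at 0.57 in gastrocnemius, thus stood above all 5 there, but no test of that difference was made. Of the transgelin and calponin family 2 of 5 genes were tested. Cnn3, a calponin found also outside smooth muscle, rose in SOD1 gastrocnemius by 1.09 (SE 0.19, limma adjusted p = 0.00524), against 0.45 in triceps and 0.64 in crush (limma adjusted p = 0.0648). Tagln2 changed by 0.017, -0.65 and 0.47.

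Acta2 and Tagln varied together across arrays, while Abcc9 and Kcnj8 did so much less. Over 20 arrays Tagln and Acta2 had r = 0.763, and r = 0.732 as deviations from group means. Abcc9 and Kcnj8 had 0.164 and 0.281. Between the channel and filament genes, Abcc9 had -0.320 with Acta2 and 0.195 with Tagln, and Kcnj8 had 0.143 and 0.193. These values describe arrays that share groups and a common scaling, and carry no test.

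**Figure D3:**
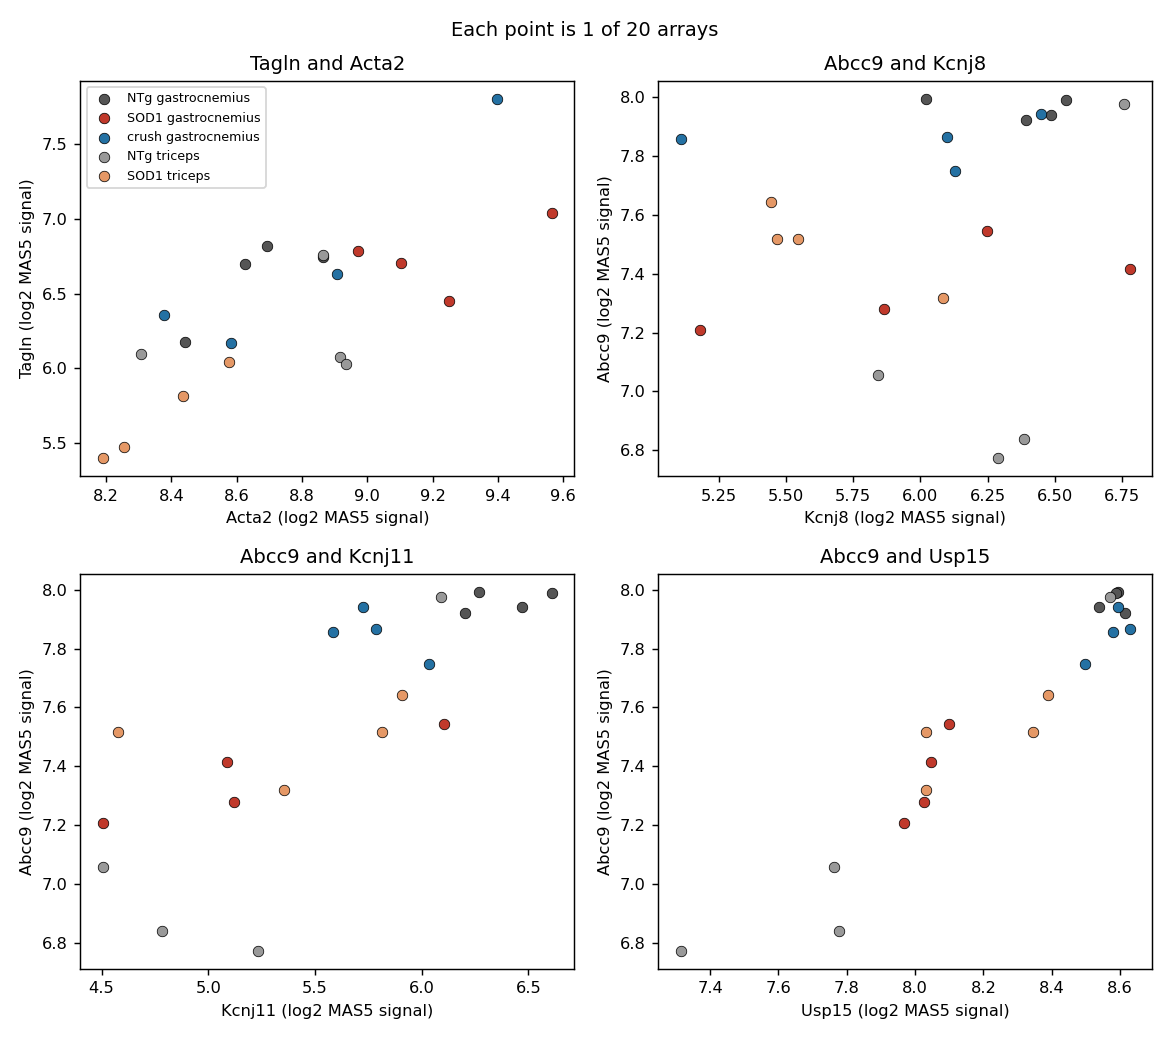
Log2 signals of 4 gene pairs, each point 1 of 20 arrays coloured by group: Tagln against Acta2, and Abcc9 against Kcnj8, Kcnj11 and Usp15. Tagln rises with Acta2 (r = 0.763), Abcc9 rises with Kcnj11 (r = 0.780) and Usp15 (r = 0.962), and Abcc9 shows little relation to Kcnj8 (r = 0.164).

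Among 4764 genes, the 3 whose levels were most like those of each gene were found by Pearson r over the 20 arrays. For Abcc9 they were Usp15, a deubiquitinating enzyme gene, at 0.962, Prkar2a, a regulatory subunit of protein kinase A, at 0.868, and Thap12 at 0.858. Usp15 kept r = 0.908 as deviations from group means. It read 8.57, 7.78, 7.31 and 7.76 in NTg triceps, so replicate 1 was high there as well. Usp15 was lower in SOD1 gastrocnemius by a log2 change of -0.55 (SE 0.17, limma adjusted p = 0.0434) and higher in NTg gastrocnemius than NTg triceps by 0.73 (SE 0.17, limma adjusted p = 0.0350). Prkar2a changed by -1.09 (limma adjusted p = 0.0286) and 1.46 (limma adjusted p = 0.0204). For Kcnj8 they were Chchd10, a mitochondrial protein gene, at 0.839, Fam220a at 0.809 and Yipf7 at 0.803. For Tagln they were Scara5 at 0.827, Mob1a at 0.778 and Acta2 at 0.763. For Acta2 they were Flna, the actin cross-linker filamin A, at 0.820, Crip1 at 0.792 and Anxa2 at 0.766. The channel genes were thus not among each other's nearest genes, and Acta2 was among those of Tagln. These values hold for 1 probe set a gene, and second probe sets had lower r. They gave 0.324 for Thap12 with Abcc9 and 0.385 for Mob1a with Tagln. With Kcnj8 they gave 0.706 for Chchd10 and 0.634 for Fam220a.

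Of 16 listed contractile genes of smooth muscle 11 were on the array and 10 were tested. In SOD1 gastrocnemius 0 were called higher and 1 lower, near the 12% of all tested probe sets called there. The median change was -0.014, against -0.0015 for all tested probe sets. The gene called was Srf, the serum response factor that acts on CArG boxes, at -0.77 (SE 0.22, limma adjusted p = 0.0301). A second Srf probe set gave -0.46. Srf also fell in crush, by a change of -0.84 (SE 0.22, limma adjusted p = 0.0369). It was the only one of 10 called there, where 4.13% of all tested probe sets were called. In SOD1 gastrocnemius 5 of the 10 genes had changes above 0 and 5 below. Flna, Cald1 and Vcl, which bind or anchor actin filaments, changed by 0.40, 0.33 and 0.27 there without passing the test. Mrtfa, a coactivator of serum response factor, changed by -0.77 (SE 0.32, limma adjusted p = 0.113). Synpo2, an actin-binding gene of muscle, changed by -0.91 (SE 0.32, limma adjusted p = 0.0653).

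In SOD1 triceps no gene of that list was called, but all 10 had changes below 0, with a median of -0.28, against 0.013 and 48.2% below 0 for all probe sets. Mrtfa, a coactivator of serum response factor, had the largest change, -0.54 (SE 0.32, limma adjusted p = 0.412), with separate groups. Myl9, the regulatory light chain of smooth muscle myosin, changed by -0.42 (SE 0.20, limma adjusted p = 0.328) with separate groups, and Tpm2, a tropomyosin, by -0.39. Kcnj8, Tagln and Acta2 at -0.68, -0.56 and -0.39 lay on the same side, and Abcc9 at 0.34 did not. The summed signal of the 10 genes was 6014 to 8584 in NTg triceps and 4842 to 6497 in SOD1 triceps.

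Of 20 listed pericyte genes 9 were on the array and 6 were tested, and none was called in any comparison. Limma called 12% of all tested probe sets in SOD1 gastrocnemius, 0.239% in SOD1 triceps and 4.13% in crush. In the other comparisons it called at most 1.71%, so a count of 0 of 6 is near these shares. The median change of the 6 genes was 0.19 in SOD1 gastrocnemius, -0.25 in SOD1 triceps and 0.15 in crush. For all tested probe sets it was -0.0015, 0.013 and 0.017. Pdgfrb, the platelet-derived growth factor receptor that recruits pericytes, changed by 0.46 (SE 0.21, limma adjusted p = 0.157) in SOD1 gastrocnemius and 0.0047 in triceps. Notch3, a receptor of mural cells, changed by 0.27 and -0.32. Its groups were separate in SOD1 gastrocnemius, as were those of 26% of all tested probe sets. Steap4, a metalloreductase gene, had the largest change of the 6 in SOD1 gastrocnemius, 0.58 (SE 0.27, limma adjusted p = 0.152), and its change in triceps, 0.26, was above 0 while the list's median was below. Vtn, the vitronectin gene, changed by -0.35 in SOD1 gastrocnemius, -0.74 in triceps (limma adjusted p = 0.120) and -0.71 in crush (limma adjusted p = 0.0513). The groups of Vtn were separate in triceps, as were those of 6.99% of all tested probe sets. In gastrocnemius the summed signal of these markers was 4653 to 5108 in NTg and 4713 to 5565 in SOD1. The sum includes Des, which is also a gene of skeletal muscle, at log2 signals of 11.3 to 11.6 in NTg and 11.5 to 11.8 in SOD1. It is therefore not a measure of pericytes alone.

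**Figure D4:**
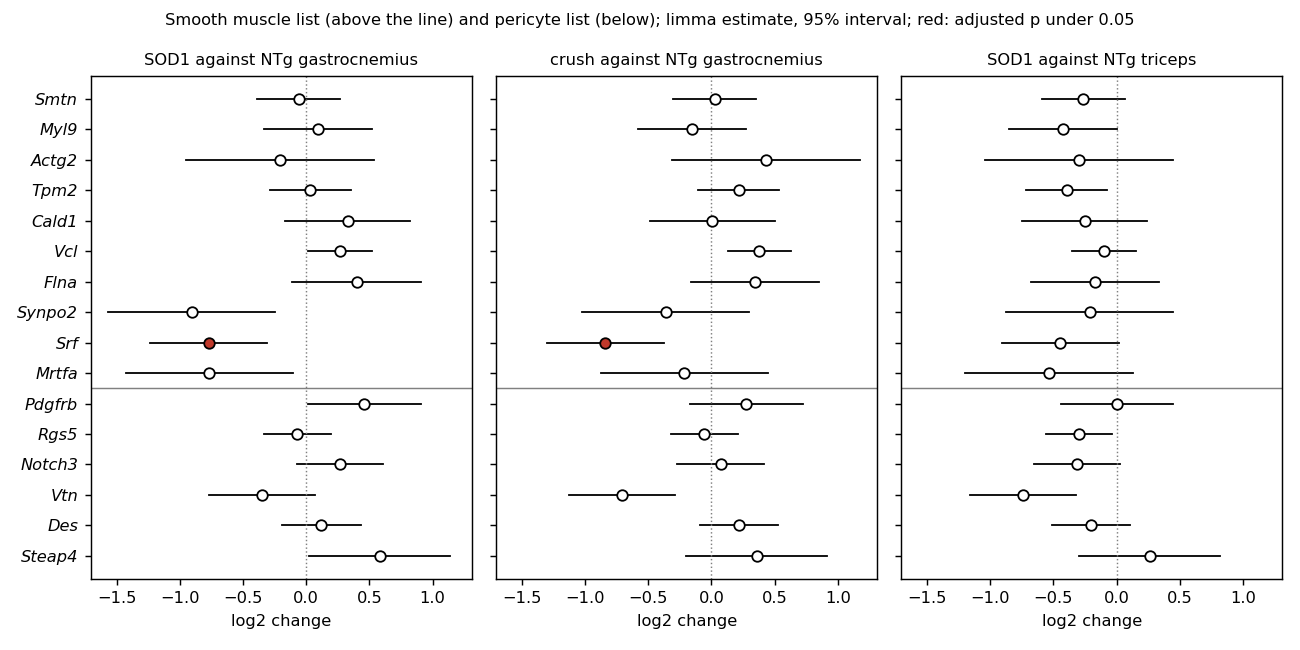
Log2 changes with 95% intervals of 10 smooth muscle genes (above the line) and 6 pericyte genes (below it) with SOD1 in gastrocnemius, after crush and with SOD1 in triceps; red marks a limma adjusted p under 0.05. Srf is the gene called, at -0.77 in SOD1 gastrocnemius and -0.84 in crush, and all 10 smooth muscle genes lie below 0 in triceps.

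Markers of other cells moved with the comparisons as well. In SOD1 gastrocnemius all 9 tested macrophage genes had changes above 0 and 7 were called, against 12% of all tested probe sets. Their median change was 0.90, with summed signals of 1428 to 2184 against 788 to 1014 in NTg. All 12 tested fibroblast genes had changes above 0 there (median 0.36, none called by limma, summed signals of 9893 to 11156 against 6867 to 10619), and 11 of 12 below 0 in triceps (median -0.37), the same signs as Acta2. Endothelial genes had medians of -0.13 and -0.41, with 10 and 12 of 12 below 0 and none called. Tgfbr1 and Tgfbr2, receptors of the TGF-beta pathway that drives Acta2 in myofibroblasts, rose in SOD1 gastrocnemius by 0.94 (limma adjusted p = 0.0184) and 0.61 (limma adjusted p = 0.0301). They were the 2 genes called of 5 tested in that list, against 12% of all tested probe sets. In triceps Tgfbr1 changed by 0.90 with separate groups (limma adjusted p = 0.113) and Tgfbr2 by 0.32, neither called. The part of these cells in the changes of the 4 genes was not tested.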

How the data were processed

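RNA of 20 mouse muscle samples was measured on Affymetrix arrays. The authors deposited 1 table of log2 values made with MAS5, per the submitters' processing notes; the sources used here name no MAS5 version, target level or scan batch. Of 10748 probe sets 9874 had 1 symbol in the platform annotation, 387 several and 487 none. No columns were left unused.

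The 30% of probe sets with the lowest mean were dropped. limma 3.58.1 in R 4.3.3 fitted 5 group means (15 residual degrees of freedom) with an intensity trend, with Benjamini-Hochberg adjustment over 7523 probe sets and a threshold of 0.05. A gene in several probe sets was read from the one with the highest mean. Exact permutation tests were two-sided. The fit was tested on simulated data. Alternatives were other scalings, an offset, filters, the arrays compared alone, replicate blocks and each array left out. Figures used Python 3.11.15 with matplotlib 3.10.9. The p-values of limma judge a difference of group means against a spread between samples that is pooled over the 5 groups. The number of arrays limits precision.

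The 4 genes and the gene lists were chosen with earlier results of these data known. Genes named beyond the 4 were the 3 most alike by r, up to 4 called genes a list and comparison or the 1 with the largest change, and all tested channel, actin, transgelin and calponin genes; the check genes, Kcnj11, Rgs5, Cald1, Vcl, Myl9, Tpm2, Pdgfrb and Notch3 were added after their values were seen.

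Same-numbered samples of both muscles deviated together with r of -0.10 to 0.62 in SOD1 and -0.087 to 0.24 in NTg mice. For same-numbered SOD1 and crush gastrocnemius samples r was 0.055 to 0.45. These values do not settle whether a number marks 1 mouse. As no label ties them, the numbers were not taken as pairs, and the main tests treated all samples as independent. Fits with replicate blocks are given below.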

Additional observations from a re-analysis of the deposited data

Results flagged for a closer look

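In 3 of 20 sets of 4 arrays (4 genes in 5 groups), 1 array stood far from the other 3, judged by its gap to the nearest array over the whole range, against Dixon's 95% critical value. Chance gives about 1 in 20. Kcnj8 in SOD1 triceps replicate 3 was at 6.09, with a gap of 0.846 of the range, and without it the SOD1 change in triceps was -0.83 in place of -0.68. Tagln in NTg triceps replicate 4 was at 6.76, with a gap of 0.91 of the range. Acta2 in NTg triceps replicate 1 was at 8.31, with a gap of 0.886 of the range. That last array is also the one on which Abcc9 read 7.98 where the other 3 read 6.77 to 7.06.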

How the results depend on the processing

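Over scaling, offset, filter, block and sample-set alternatives the 4 genes gave 174 values with the same direction and side of the threshold, against 3 reversed, 2 stronger and 1 weaker. The reversed ones were Tagln in SOD1 against crush, 0.0051 with all settings as reported, which was -0.031 after quantile normalization, -0.018 with the 75th percentile subtracted and -0.0083 with an offset of 16. Acta2 in SOD1 against NTg gastrocnemius, at 0.57, passed the threshold with the 60% filter (limma adjusted p = 0.0497) and with the compared arrays alone (limma adjusted p = 0.0139). Abcc9 in NTg gastrocnemius against NTg triceps, at 0.80, missed the threshold with the compared arrays alone (limma adjusted p = 0.0876). Exact permutation p-values are not adjusted over probe sets. The value was 0.0857 for that Abcc9 difference. It was 0.0286 for Acta2 in SOD1 against NTg gastrocnemius and for Abcc9 in SOD1 against crush, at -0.49. Every probe set without overlap reaches 0.0286, which were 26% and 5.48% of all in these 2 comparisons. The causes were not tested. The 60% filter dropped Kcnj8 and Tagln.

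Counts of called probe sets moved by over 1.5 times. SOD1 against NTg gastrocnemius had 902, and 1768 with the compared arrays alone. SOD1 against NTg triceps had 18, and 9 after quantile normalization, 9 with the 75th percentile subtracted, 7 with the 60% filter and 104 with a fixed replicate block. Crush against NTg had 311, and 494 with a fixed replicate block. NTg gastrocnemius against NTg triceps had 129, and 80 with the 60% filter and 361 with a random mouse block as the replicate block. The replicate block changed no call of the 4 genes. With all probe sets, the random and fixed blocks brought Kcnj11 in NTg gastrocnemius against NTg triceps, at 1.23, to limma adjusted p-values of 0.0218 and 0.0255.

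Leaving out 1 array at a time gave 178 to 1341 called probe sets for SOD1 against NTg gastrocnemius, 3 to 167 for triceps, 94 to 395 for crush, 0 to 604 for SOD1 against crush, 0 to 34 for the difference between muscles and 30 to 327 for the healthy muscles. The highest count came without NTg triceps replicate 1 for the last 2 of these and without crush replicate 4 for the others. Abcc9 ranged over -0.66 to -0.55 for SOD1 against NTg gastrocnemius, 0.21 to 0.61 for triceps, -1.21 to -0.81 for the difference between muscles and 0.67 to 1.07 for the healthy muscles. Acta2 ranged over 0.45 to 0.65 for SOD1 against NTg gastrocnemius and -0.034 to 0.31 for crush. Tagln ranged over -0.0081 to 0.23 for SOD1 against NTg gastrocnemius, -0.22 to 0.32 for crush and -0.19 to 0.36 for SOD1 against crush. Kcnj8 ranged over -0.21 to 0.35 for SOD1 against crush and -0.12 to 0.19 for the healthy muscles. Over all such fits the 4 genes gave 208 values with the same direction and side, 15 reversed, 3 stronger and 14 weaker.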

Other observations

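Rgs5, a regulator of G protein signalling that is abundant in pericytes, had 4 probe sets that did not tell one story. The one with the highest signal changed by -0.070 in SOD1 gastrocnemius and differed by 0.075 between the healthy muscles. The other 3 changed by -0.39, -0.37 and -0.71 in SOD1 gastrocnemius, and their differences between NTg gastrocnemius and NTg triceps were 0.62, 0.64 and 1.07. The probe set 1420942_s_at had the signs of Abcc9 in all comparisons with NTg samples, with 0.14 in SOD1 triceps and -0.16 in crush. These probe sets were singled out after their values were seen.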
